A study of Mus musculus with 20 samples.

Results

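Liver glycogen is built and broken down by a small set of enzymes, and 9 of their genes were followed here in the livers of adult male mice whose mothers had been pregnant in the cold, in mild cold, in the warmth or at the usual animal house temperature. The genes were chosen by symbol: Ugp2, Gys2 and Gbe1 for synthesis, Pygl, Phka2 and Phkg2 for breakdown, and Ppp1r3b, Ppp1r3c and Ppp1r3g for the subunits that carry protein phosphatase 1 to glycogen. All 9 had a row among the 22206 transcript clusters (the probe sets of 1 transcribed region each) of the array, and each had 1 cluster. Liver RNA of 20 mice was hybridised, 1 array per mouse, and the values are log2 expression values after robust multi-array averaging (RMA). The mice were male C57BL/6NCr, an inbred strain, 4 to 5 months old.

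The groups hold 5 mice each and are named by the temperature at which the dam was kept. Dams of the 10 °C and 18 °C groups were acclimated for 2 weeks before breeding, and dams of the 30 °C group for 3 weeks. Sires of these groups were exposed for 3 days. The 23 °C group came from breeding pairs at standard housing temperature and served as the control. At delivery every dam and litter moved to 23 °C, so all the offspring measured, controls included, were wild type, grew up at 23 °C and ate standard chow freely. Beyond an animal number, the labels say nothing of which mice shared a litter, when they were killed or when they last ate. The p-values thus weigh differences against the scatter of these arrays, and would be too small where brothers are among the 5.

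Glycogen is a branched polymer of glucose that the liver stores after meals and releases as blood glucose between them. Glycogen synthase lengthens the chains and is switched on by removal of phosphate, whereas glycogen phosphorylase shortens them and is switched on by phosphorylase kinase. Protein phosphatase 1 removes phosphate from both, which switches the synthase on and the phosphorylase off. Its glycogen-targeting subunits place it on the particle. Much of this control acts on the proteins, and the arrays measured only RNA.

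The livers were liver by their markers. All 8 hepatocyte markers were above background, with a mean over the list of 18.85 to 19.04 on the 20 arrays. Background here means a mean under log2 3.90, the 95th percentile of 1091 olfactory receptor clusters. Of the lists for cells that a liver sample could carry, 2 of 7 skeletal muscle markers (list mean 3.27 to 3.58 over the arrays), 0 of 4 adipocyte markers (2.63 to 3.24) and 0 of 4 lymphocyte markers (2.87 to 3.51) were above background. Of the pancreatic acinar markers 3 of 5 were (3.72 to 4.16). Kupffer cell and macrophage markers, 5 of 5 above background, had list means of 8.33 to 8.99 in 10 °C, 8.17 to 9.01 in 18 °C and 7.76 to 8.79 in 30 °C offspring, against 7.54 to 8.64 in 23 °C offspring. Erythroid markers, 2 of 2, had list means of 8.15 to 8.58 in 10 °C, 8.27 to 8.82 in 18 °C and 8.24 to 8.87 in 30 °C offspring, against 8.49 to 8.95 in 23 °C offspring. Sinusoidal endothelium markers (5 of 5, list means 8.32 to 9.10 over the 20 arrays) and stellate cell markers (4 of 5, 7.82 to 8.45) were also above background. The part of these cells in the results was not tested. In a whole-liver sample, fewer cells of a type and less RNA per cell cannot be told apart.

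None of the 9 genes passed the test of any comparison. Each of 6 pairwise comparisons, a 4-group F-test and a slope on maternal temperature was fitted with limma over all clusters, with Benjamini-Hochberg adjustment and a threshold of 0.05. The share of all clusters called was 0.00901% for 10 °C against 23 °C and 0% in the other 7 tests, so hardly any gene of the array passed. The 2 genes with large differences between group means were Ppp1r3b and Ppp1r3c, which also varied most between mice of 1 group. At an unadjusted p under 0.05 stood 1 gene of the 9 for 10 °C against 23 °C, where 11.6% of all clusters did, 1 for 18 °C against 23 °C (9.25% of all) and 1 for 30 °C against 23 °C (4.84%). It was 0 for 10 °C against 30 °C (6.76%), 2 for 10 °C against 18 °C (8.1%) and 2 for 18 °C against 30 °C (8.21%). The F-test had 2 (9.86%) and the slope 1 (8.15%), that of Ppp1r3g, which was not above background. With 9 genes, counts of 0 to 2 beside these shares are not a result about glycogen genes as a group.

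**Figure D1:**
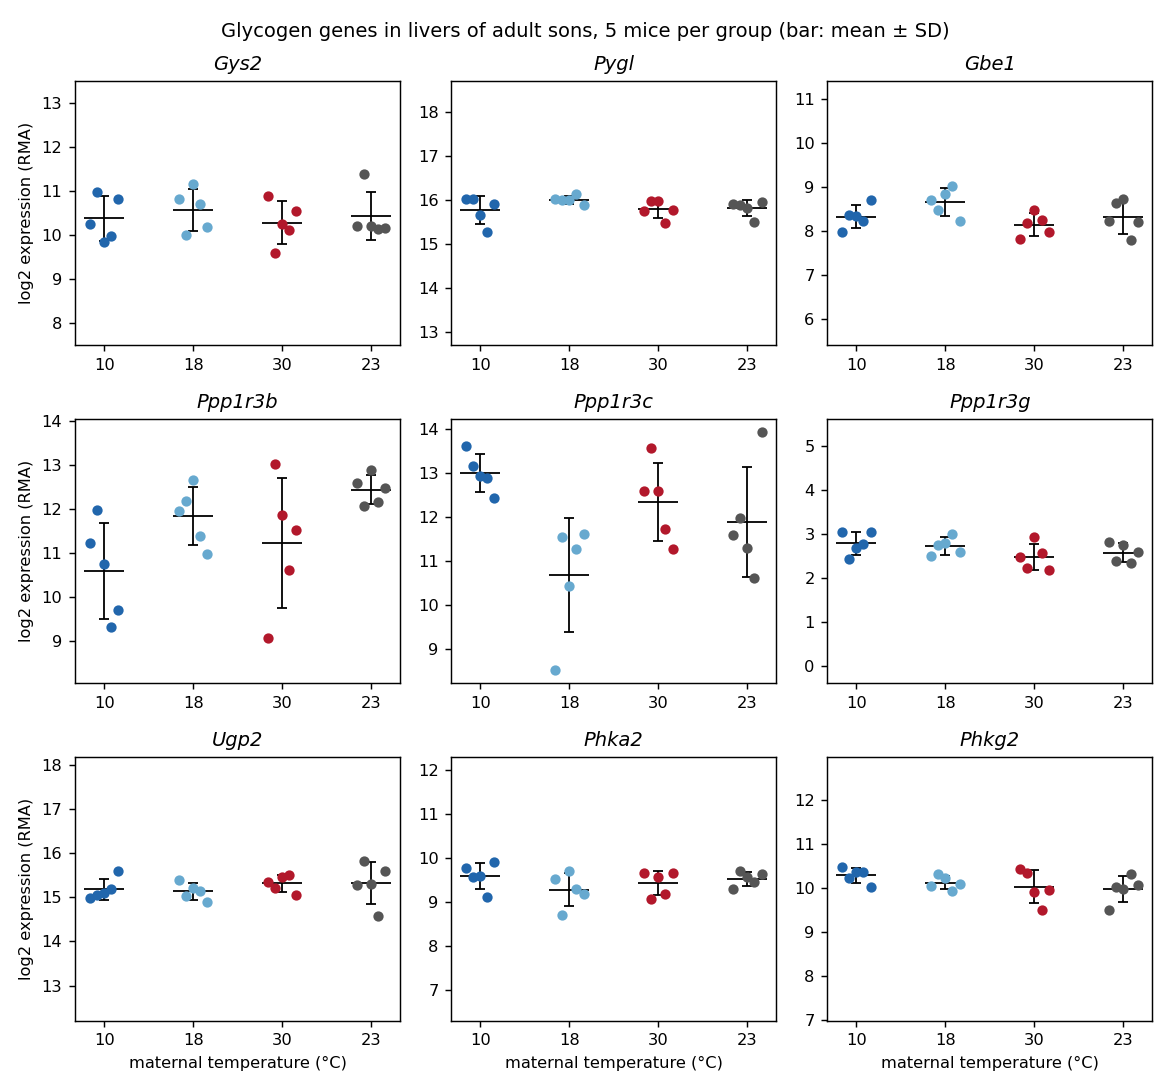
Log2 expression of the 9 glycogen genes (vertical axis, each panel spanning the same number of log2 units) by maternal temperature in °C (horizontal axis), 1 point per mouse, with the group mean and SD as bars. Ppp1r3b and Ppp1r3c spread over several log2 units, between 9.08 and 13.02 and between 8.53 and 13.92, while Pygl stays between 15.27 and 16.14.

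Ppp1r3b encodes the glycogen-targeting subunit of protein phosphatase 1 known as GL, which predominates in rodent liver. Its log2 values were 11.23, 11.98, 10.75, 9.31 and 9.71 in 10 °C offspring. They were 11.96, 12.19, 12.65, 11.39 and 10.99 in 18 °C offspring and 9.08, 13.02, 11.87, 10.62 and 11.52 in 30 °C offspring, against 12.58, 12.07, 12.89, 12.17 and 12.48 in 23 °C offspring. The 23 °C mice lay close together, and every 10 °C mouse lay below every 23 °C mouse. The 18 °C mice at 12.19 and 12.65 lay among the 23 °C mice, and the 30 °C mouse at 13.02 lay above them. The 30 °C group held both the highest and the lowest mouse of the study.

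The Ppp1r3b means were 10.60 ± 1.09 in 10 °C, 11.84 ± 0.66 in 18 °C and 11.22 ± 1.47 in 30 °C offspring, against 12.44 ± 0.33 in 23 °C offspring (SD, n = 5 each). Between 10 °C and 23 °C offspring the log2 difference was -1.84 ± 0.54 (SE, n = 5 per group, 95% interval -2.95 to -0.73, 3.58-fold, limma adjusted p = 0.197), which did not pass. The groups did not overlap, which held for this gene alone of the 9 and for 2.45% of all clusters. Between 30 °C and 23 °C offspring the difference was -1.22 ± 0.54 (SE, limma adjusted p = 0.978) with overlapping groups, and between 18 °C and 23 °C offspring -0.60 ± 0.54 (adjusted p = 0.782). The order of group means was not that of temperature, since the highest mean stood at 23 °C, and the slope was 0.39 ± 0.30 per 10 °C (SE, limma adjusted p = 0.769). The F-test gave F = 4.35 (limma adjusted p = 0.405).

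Scores of feeding state and of array background are set beside Ppp1r3b here, and within groups neither had a relation with it that passed. In the 10 °C group the lowest mouse, animal 6 at 9.31, also had the highest fasted-minus-fed score of all 20 arrays, at 3.15. This score is the mean of 7 genes known to rise on fasting minus that of 7 known to rise on feeding, centred over arrays. On each side 6 of the 7 genes were above background, and Fgf21 and Pnpla3 were not. The score averaged 0.78 ± 1.39 in 10 °C, -0.41 ± 0.49 in 18 °C and 0.00 ± 0.74 in 30 °C offspring, against -0.37 ± 0.34 in 23 °C offspring (SD). Without animal 6 the difference between 10 °C and 23 °C offspring was -1.52, and with the score as a covariate it was -1.26 (limma adjusted p = 0.471). The mean of the 23 background control rows was 3.708 ± 0.018 in 10 °C, 3.709 ± 0.039 in 18 °C and 3.661 ± 0.057 in 30 °C offspring, against 3.647 ± 0.023 in 23 °C offspring (SD). The mean of the 5222 negative control rows went the other way between 10 °C and 23 °C offspring. It was 4.53 ± 0.03 in 10 °C, 4.49 ± 0.07 in 18 °C and 4.59 ± 0.06 in 30 °C offspring, against 4.63 ± 0.09 in 23 °C offspring (SD). With that level as a covariate the Ppp1r3b difference between 10 °C and 23 °C offspring was -1.39 (limma adjusted p = 0.874). What part either had in the difference was not tested beyond these fits. In the 30 °C group animal 4 was lowest, at 9.08, and without it the difference from 23 °C offspring was -0.68.

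Ppp1r3c encodes protein targeting to glycogen (PTG), another subunit that brings the phosphatase to the particle, found in many tissues. It was the gene of the 9 with the widest range, 8.53 to 13.92. Its log2 values were 13.60, 13.16, 12.93, 12.89 and 12.42 in 10 °C offspring. They were 8.53, 11.54, 10.43, 11.27 and 11.61 in 18 °C offspring and 12.59, 13.55, 12.58, 11.71 and 11.27 in 30 °C offspring, against 11.58, 11.98, 11.28, 10.61 and 13.92 in 23 °C offspring. The 10 °C mice were high together and all of them lay above all of the 18 °C mice. A single 23 °C mouse, animal 23, had the highest value of the study, above every 10 °C mouse.

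The Ppp1r3c means were 13.00 ± 0.43 in 10 °C, 10.68 ± 1.29 in 18 °C and 12.34 ± 0.89 in 30 °C offspring, against 11.88 ± 1.25 in 23 °C offspring (SD, n = 5 each). Between 10 °C and 18 °C offspring, the 2 cold groups, the log2 difference was 2.32 ± 0.56 (SE, n = 5 per group, 95% interval 1.17 to 3.47, 5.00-fold, limma adjusted p = 0.367). It did not pass, although its p was 22nd of the 22206 clusters in rank. Groups that do not overlap were found between 10 °C and 18 °C offspring for this gene of the 9 and for 1.42% of all clusters. For the other comparisons 0 of the 9 genes had groups that do not overlap, against 1.81% of all clusters for 18 °C against 23 °C, 0.752% for 30 °C against 23 °C, 0.982% for 10 °C against 30 °C and 1.41% for 18 °C against 30 °C.

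Against 23 °C offspring, Ppp1r3c differed by 1.12 ± 0.56 in 10 °C offspring (SE, limma adjusted p = 0.440), by -1.20 ± 0.56 in 18 °C offspring (adjusted p = 0.522) and by 0.46 ± 0.56 in 30 °C offspring (adjusted p = 0.987). The 3 comparisons share the 23 °C arrays. Between 18 °C and 30 °C offspring the difference was -1.66 ± 0.56 (SE, limma adjusted p = 0.445), and the F-test gave F = 6.21 (adjusted p = 0.357). Single mice weighed on these values. Without 18 °C animal 1, at 8.53, the difference between 18 °C and 23 °C offspring was -0.66 and that between 10 °C and 18 °C offspring 1.79. Without 23 °C animal 23 the difference between 10 °C and 23 °C offspring was 1.63. None of these passed.

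Within groups, the correlation of Ppp1r3b with Ppp1r3c did not pass (r = 0.12, permutation p = 0.588, adjusted p = 0.815 over 36 pairs). Their within-group SDs, pooled over the 4 groups, were 0.99 and 1.02, against a median of 0.29 over the 12464 clusters above background, where they stood at percentiles 99.1 and 99.2. Each difference above is therefore set against an unusually wide spread between mice of 1 group. Ppp1r3b had its largest difference from 23 °C at 10 °C and lay lower there, while Ppp1r3c lay higher at 10 °C (1.12) and lower at 18 °C (-1.20). None of these differences passed.

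The stretch of 250 bases before the transcription start of Ppp1r3c is shown because this gene had the widest spread of the 9. It is credited to the RefSeq promoter table, build GRCm38.p6, at chr19:36736605-36736854 on the minus strand, written 5′ to 3′, with motif matches in capitals. They are an E-box, CACGTG, starting 104 bases before the start, and a CCAAT box read on the opposite strand, ATTGG, starting 124 bases before it.
Ppp1r3c: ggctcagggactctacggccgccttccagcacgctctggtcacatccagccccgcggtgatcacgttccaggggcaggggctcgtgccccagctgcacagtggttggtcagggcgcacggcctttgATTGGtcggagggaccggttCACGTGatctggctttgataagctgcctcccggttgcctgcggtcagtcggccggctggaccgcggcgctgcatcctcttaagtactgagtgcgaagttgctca

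Motifs were searched on both strands: the E-box CACGTG, the cAMP response element TGACGTCA, the shorter element TGACG (which lies within the full one), the D-box TTATGTAA, the TATA box TATAAA, the GC box GGGCGG and the CCAAT box CCAAT. Among 32851 mouse promoter windows of the same length, 6.02% hold the E-box, 1.55% the cAMP response element, 17.8% the shorter element, 0.819% the D-box, 12.4% the TATA box, 32.7% the GC box and 33.8% the CCAAT box. A match describes letters in this window and nothing about binding. Entries were found for 7 of the 9 genes, and Gys2 and Ppp1r3b had none.

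Ppp1r3g, a targeting subunit that in mouse liver is known to rise on fasting, was the exception among the 9 in not being above background, with a mean of 2.65. Its values ran from 2.19 to 3.05, and the means were 2.80 ± 0.26 in 10 °C, 2.73 ± 0.19 in 18 °C and 2.48 ± 0.30 in 30 °C offspring, against 2.58 ± 0.21 in 23 °C offspring (SD, n = 5 each). The slope on maternal temperature was -0.17 ± 0.08 per 10 °C (SE, limma adjusted p = 0.591). At this signal the values give no level of the transcript.

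Of the synthesis enzymes, Ugp2, which makes the UDP-glucose that glycogen synthase uses, lay between 14.57 and 15.83 on all arrays. Its means were 15.19 ± 0.24 in 10 °C, 15.14 ± 0.19 in 18 °C and 15.32 ± 0.19 in 30 °C offspring, against 15.32 ± 0.48 in 23 °C offspring (SD, n = 5 each). The group means spanned 0.18 log2 units, less than the pooled within-group SD of 0.30. The difference from 23 °C offspring was -0.13 ± 0.19 in 10 °C, -0.18 ± 0.19 in 18 °C and 0.00 ± 0.19 in 30 °C offspring (SE, limma adjusted p = 0.831, 0.823 and 1). The 95% intervals of these 3 differences lay between -0.56 and 0.38.

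Gys2, the liver form of glycogen synthase, had log2 values of 10.27, 10.99, 9.85, 9.99 and 10.83 in 10 °C offspring. They were 10.83, 10.00, 11.16, 10.71 and 10.19 in 18 °C offspring and 10.90, 9.60, 10.27, 10.12 and 10.55 in 30 °C offspring, against 10.22, 11.40, 10.21, 10.14 and 10.17 in 23 °C offspring. All 4 groups overlapped, and 4 of the 5 control mice lay within 0.1 log2 units of each other while animal 2 stood apart above them. The means were 10.39 ± 0.51 in 10 °C, 10.58 ± 0.48 in 18 °C and 10.29 ± 0.49 in 30 °C offspring, against 10.43 ± 0.55 in 23 °C offspring (SD, n = 5 each). The difference from 23 °C offspring was -0.04 ± 0.29 in 10 °C, 0.15 ± 0.29 in 18 °C and -0.14 ± 0.29 in 30 °C offspring (SE), with limma adjusted p of 0.971 in 10 °C, 0.914 in 18 °C and 0.995 in 30 °C offspring.

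Gys2 varied with the clock genes of the same livers. In mouse liver Gys2 is known as a gene whose transcript follows the circadian clock. A clock score was taken for each array as the mean of 9 transcripts that peak late in the light phase or in the evening (such as Dbp and Per3) minus that of 4 that peak towards morning (such as Arntl), after centring each over arrays. After subtraction of group means, Gys2 followed this score with r = 0.908 over 20 arrays (permutation p = 1e-05, the smallest 100000 resamples give; adjusted p = 0.00027 over 27 relations of the genes to 3 array measures). Spearman's rho was 0.869 (adjusted p = 0.00027), and without the 2 arrays farthest from the median score, 23 °C animal 2 and 30 °C animal 4, r was 0.854. No other of the 27 relations passed. By Pearson's r the next were Ugp2 (r = 0.656) and Phka2 (r = 0.600) with the clock score, both at an adjusted permutation p of 0.0805. By Spearman's rho these stood at an adjusted permutation p of 0.0703. Gys2 and Phkg2 with the fasted-minus-fed score stood at the same value.

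The clock score differed widely between mice of 1 group. It averaged -0.36 ± 1.53 in 10 °C, 0.68 ± 1.71 in 18 °C and 0.29 ± 1.39 in 30 °C offspring, against -0.60 ± 2.10 in 23 °C offspring (SD, n = 5 each), and ran from -2.86 to 2.78 within the 23 °C group alone. The mouse with the highest Gys2, 23 °C animal 2, was also the one with a score of 2.78. With the score as a covariate, the Gys2 difference from 23 °C offspring was -0.11 in 10 °C, -0.19 in 18 °C and -0.38 in 30 °C offspring, and none passed (limma adjusted p = 0.832, 0.810 and 0.988). The hour at which each mouse was killed is not given, and its part in the Gys2 values was not tested.

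**Figure D2:**
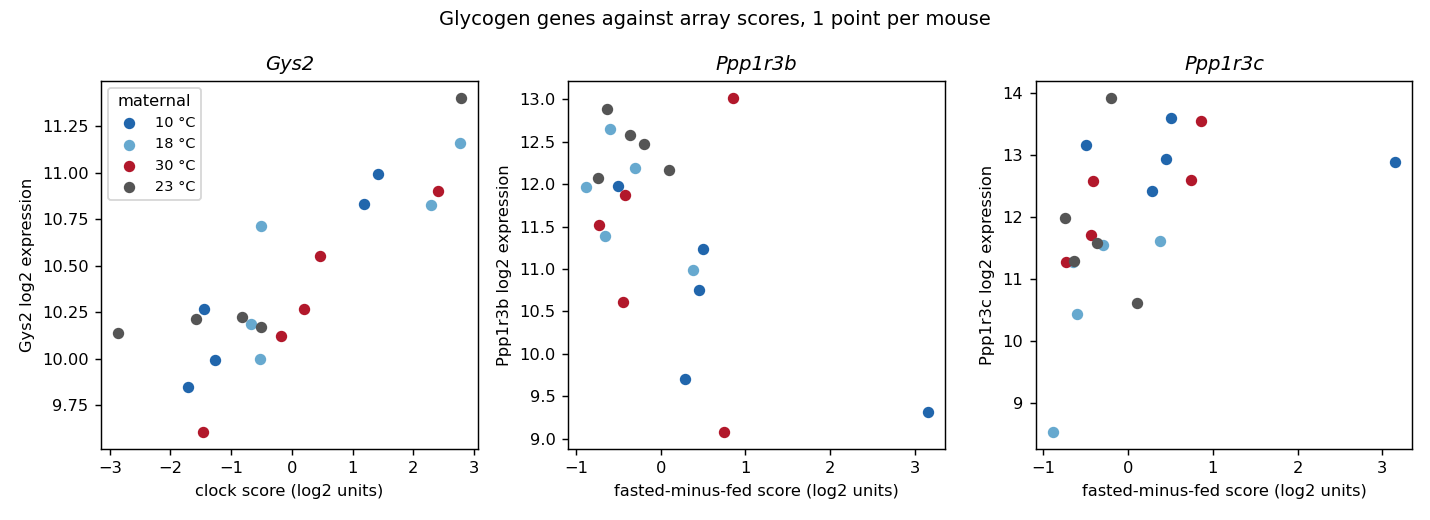
Log2 expression (vertical axes) of Gys2 against the clock score, and of Ppp1r3b and Ppp1r3c against the fasted-minus-fed score (horizontal axes, log2 units), 1 point per mouse coloured by maternal temperature. Gys2 climbs with the clock score across the mice (r = 0.908 within groups), while Ppp1r3b and Ppp1r3c scatter, and 1 mouse of the 10 °C group lies far to the right at a fasted-minus-fed score of 3.15.

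The fasted-minus-fed score had no relation with any of the 9 genes that passed. Within groups, r was -0.580 for Pygl, -0.510 for Phka2, -0.431 for Ppp1r3b and 0.254 for Ppp1r3c (adjusted permutation p = 0.236, 0.236, 0.316 and 0.316 over the 27 relations). Spearman's rho was -0.286 for Pygl, -0.490 for Phka2, -0.229 for Ppp1r3b and 0.465 for Ppp1r3c (adjusted permutation p = 0.527, 0.156, 0.593 and 0.153). By rank the closest of the 9 genes were Phkg2 (rho 0.614, r = 0.402) and Gys2 (rho -0.576, r = -0.453). Their adjusted permutation p was 0.0703 for rho and 0.236 for r. Without the 2 arrays farthest from its median, 10 °C animal 6 and 30 °C animal 5, r was -0.414 for Pygl, -0.202 for Phka2, -0.629 for Ppp1r3b and 0.310 for Ppp1r3c.

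Gbe1, the branching enzyme, which adds the side chains of glycogen, had its highest mean in the 18 °C group. Its values in 18 °C offspring were 8.70, 8.49, 8.86, 9.02 and 8.22, against 7.82, 8.19, 8.48, 8.26 and 7.99 in 30 °C offspring. The ranges overlap, with 1 of the 18 °C mice below 2 of the 30 °C mice. The means were 8.33 ± 0.26 in 10 °C, 8.66 ± 0.31 in 18 °C and 8.15 ± 0.26 in 30 °C offspring, against 8.32 ± 0.38 in 23 °C offspring (SD, n = 5 each). Between 18 °C and 30 °C offspring the difference was 0.51 ± 0.19 (SE, 95% interval 0.12 to 0.90, limma adjusted p = 0.485). From 23 °C offspring, 18 °C offspring differed by 0.33 ± 0.19 and 30 °C offspring by -0.18 ± 0.19 (SE, limma adjusted p = 0.613 and 0.987). Without 23 °C animal 17 the difference between 18 °C and 23 °C offspring was 0.20.

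Of the breakdown enzymes, Pygl, the liver form of glycogen phosphorylase, varied least between mice, with a pooled SD of 0.21 and values from 15.27 to 16.14. The means were 15.78 ± 0.32 in 10 °C, 16.01 ± 0.09 in 18 °C and 15.79 ± 0.20 in 30 °C offspring, against 15.82 ± 0.18 in 23 °C offspring (SD, n = 5 each). Its 95% intervals for the difference from 23 °C offspring were -0.35 to 0.26 in 10 °C, -0.12 to 0.49 in 18 °C and -0.34 to 0.28 in 30 °C offspring. None of the intervals reached beyond 0.49 log2 units from 0. The lowest mouse was 10 °C animal 6, the mouse with the high fasted-minus-fed score.

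Phosphorylase kinase, which activates Pygl, is built of several kinds of subunit, of which Phka2 is the liver regulatory alpha chain and Phkg2 the catalytic gamma chain of liver. Phka2 means were 9.58 ± 0.30 in 10 °C, 9.28 ± 0.38 in 18 °C and 9.43 ± 0.28 in 30 °C offspring, against 9.53 ± 0.16 in 23 °C offspring (SD, n = 5 each). The largest of its differences from 23 °C offspring was -0.25 ± 0.18 in 18 °C offspring (SE, limma adjusted p = 0.717), and -0.11 without 18 °C animal 3. Phkg2 means were 10.29 ± 0.17 in 10 °C, 10.12 ± 0.16 in 18 °C and 10.02 ± 0.37 in 30 °C offspring, against 9.98 ± 0.30 in 23 °C offspring (SD, n = 5 each). It differed by 0.31 ± 0.17 between 10 °C and 23 °C offspring (SE, 95% interval -0.04 to 0.66, limma adjusted p = 0.490), with overlapping groups. Without 23 °C animal 1 this difference was 0.19. With the background control rows as a covariate it was 0.11, though their level did not overlap between these 2 groups.

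**Figure D3:**
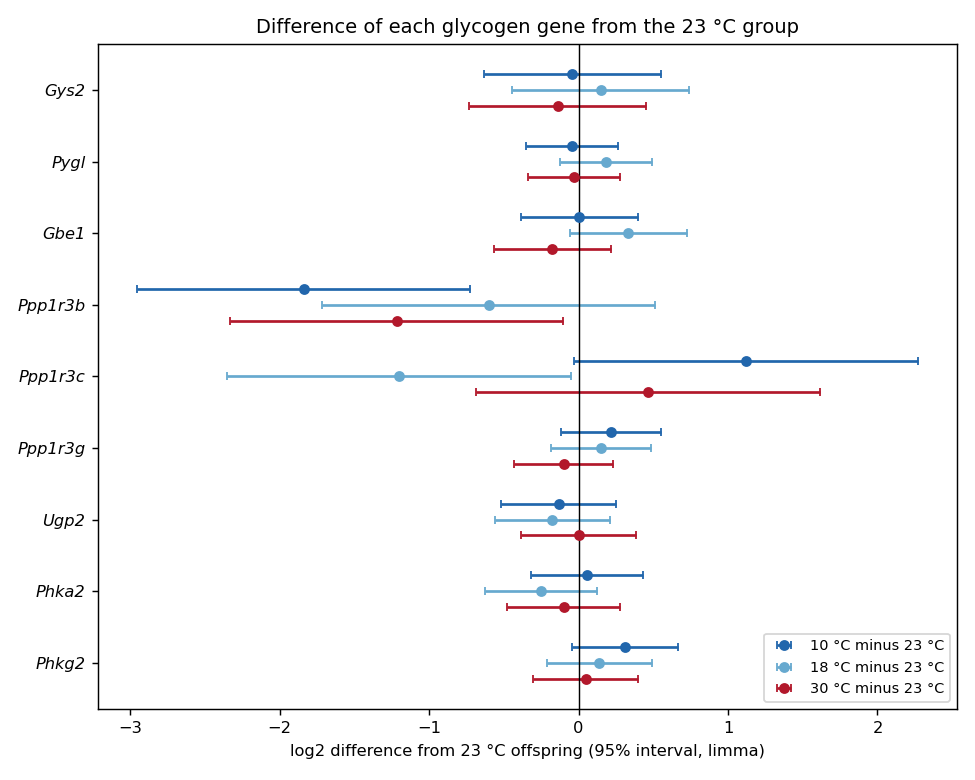
Log2 difference of each of the 9 genes (rows) in 10, 18 and 30 °C offspring from 23 °C offspring (horizontal axis), with 95% intervals from the limma fit, 5 mice per group. The intervals of Ppp1r3b and Ppp1r3c are the widest, and that of Ppp1r3b at 10 °C runs from -2.95 to -0.73; no difference passed after adjustment over all 22206 clusters.

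Over the 9 genes, the median log2 difference from 23 °C offspring was 0.01 in 10 °C, 0.14 in 18 °C and -0.10 in 30 °C offspring, beside medians of 0.0024, -0.0020 and -0.0055 over all clusters. The median size of the difference, sign dropped, was 0.13, 0.19 and 0.10 over the 9 genes, beside 0.16, 0.15 and 0.13 over all clusters. Higher than in 23 °C offspring were 5 of 9 genes in 10 °C, 5 in 18 °C and 3 in 30 °C offspring. Of all 22206 clusters, 11189 were higher in 10 °C, 11019 in 18 °C and 10814 in 30 °C offspring. With 9 genes, such counts are not a result about them as a group. Between 10 °C and 18 °C offspring the median difference was 0.04 (all clusters 0.0009), between 10 °C and 30 °C offspring 0.16 (all 0.0058), and between 18 °C and 30 °C offspring 0.22 (all 0.0033).

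The order of the group means differed from gene to gene. The 18 °C group was highest for Gys2, Pygl and Gbe1 and lowest for Ppp1r3c, Ugp2 and Phka2. The 10 °C group was highest for Ppp1r3c, Ppp1r3g, Phka2 and Phkg2 and lowest for Pygl and Ppp1r3b. No neighbouring pair in any of these orders passed the test.

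Pairs of the 9 genes were compared across mice after group means were subtracted. Of 36 pairs 1 passed, Gys2 with Phka2 (r = 0.700, permutation p = 0.00114, adjusted p = 0.041; Spearman's rho 0.728, adjusted p = 0.0486). Without 23 °C animal 2 and 30 °C animal 4, r was 0.720. Gbe1 with Ugp2 came next (r = 0.683, adjusted permutation p = 0.0729). Pygl with Ppp1r3b had r = 0.546 (adjusted permutation p = 0.474), and the median over the 36 pairs was 0.15.

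**Figure D4:**
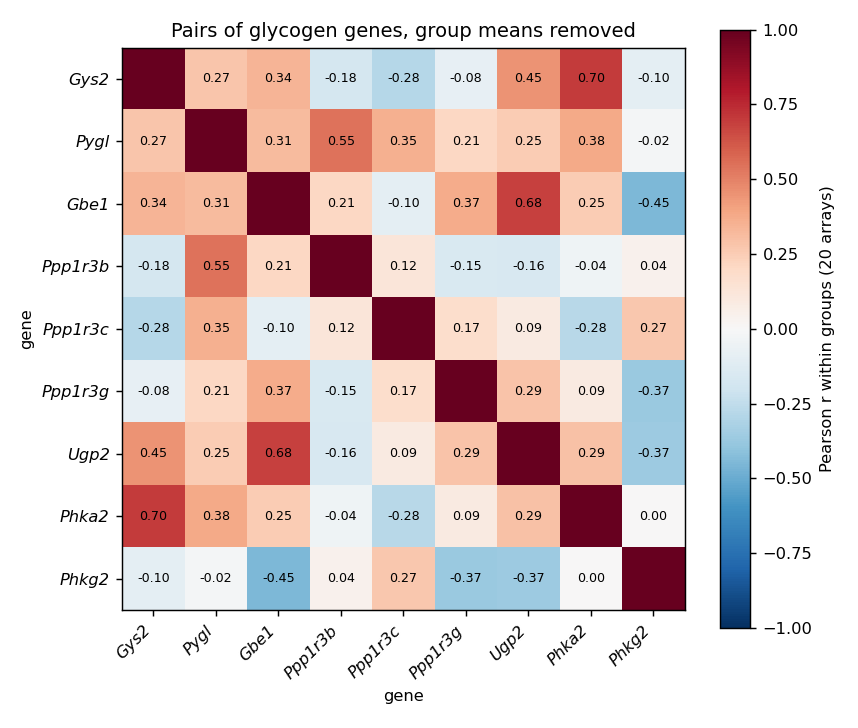
Pearson correlation of each pair of the 9 genes (both axes) over 20 arrays after subtraction of group means, with colour and number giving r. Gys2 with Phka2 (0.70) and Gbe1 with Ugp2 (0.68) are the darkest red cells, and the lowest value is -0.45.

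The 250 bases before the start of Phka2 are shown because Phka2 is the gene that varied with Gys2. They are credited to the RefSeq promoter table, build GRCm38.p6, at chrX:160501912-160502161 on the plus strand, 5′ to 3′. Capitals mark GC boxes, GGGCGG starting 43 bases and CCGCCC starting 18 bases before the start. Of the other motifs listed above, none was found in these letters.
Phka2: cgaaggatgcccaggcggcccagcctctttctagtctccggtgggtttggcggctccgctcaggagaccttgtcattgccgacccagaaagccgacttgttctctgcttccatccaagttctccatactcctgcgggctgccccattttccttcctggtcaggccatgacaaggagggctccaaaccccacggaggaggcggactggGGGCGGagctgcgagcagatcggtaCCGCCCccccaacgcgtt

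For each of the 8 genes above background, the named clusters that varied most like it within groups were looked up among 11200, over 20 arrays and with no test. Taking the highest of 11200 raises r by selection, and the level that chance alone would give was not worked out. For Gys2 the clusters most like it were Per3 (r = 0.960) and Dbp (0.928), both of them part of the clock score, and Wee1 (0.928), a kinase that holds back mitosis. For Ugp2 they were Slc2a2 (0.817), the GLUT2 glucose transporter, Dap3 (0.805), a mitochondrial ribosomal protein, and Slc37a4 (0.799), the glucose 6-phosphate transporter of the endoplasmic reticulum. Pygl was most like Rtn4ip1 (0.832), Gpd2 (0.831), the mitochondrial glycerol 3-phosphate dehydrogenase, and Dusp6 (0.805), a phosphatase of MAP kinases. Gbe1 was most like Ndufb4b (0.814), Uqcrc1 (0.781), a subunit of respiratory complex III, and Hyi (0.779).

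Ppp1r3b was most like Kif13b (0.893), a kinesin motor, Eef1e1 (0.810) and Magt1 (0.801), a magnesium transporter. Ppp1r3c was most like Memo1 (0.779), Nlrp6 (0.774), an inflammasome protein, and Rin3 (0.753). Phka2 was most like Rnf186 (0.801), Hnmt (0.777), which inactivates histamine by methylation, and Cdk10 (0.769). Phkg2 was most like Ube2z (0.881), Smad5 (0.849), a mediator of BMP signals, and Urb2 (0.840).

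A list of other genes of glycogen metabolism gave 29 with a row, of which 21 were above background. None of the 29 passed in any of the 8 tests. At an unadjusted p under 0.05 stood 3 for 10 °C against 23 °C, 1 for 18 °C against 23 °C, 0 for 30 °C against 23 °C, 2 for 10 °C against 30 °C, 2 for 10 °C against 18 °C and 5 for 18 °C against 30 °C. Over all clusters the shares were 11.6%, 9.25%, 4.84%, 6.76%, 8.1% and 8.21% in these comparisons. The F-test and the slope had 2 each, beside 9.86% and 8.15% of all clusters. The median differences of the 29 from 23 °C offspring were 0.0039 in 10 °C, 0.07 in 18 °C and -0.02 in 30 °C offspring.

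Ppp1r2, inhibitor-2 of protein phosphatase 1, had the smallest p of the 29 between 10 °C and 23 °C offspring. It averaged 10.25 ± 0.24 in 10 °C, 9.84 ± 0.13 in 18 °C and 9.90 ± 0.25 in 30 °C offspring, against 9.77 ± 0.05 in 23 °C offspring (SD, n = 5 each). The 10 °C mice lay between 9.90 and 10.52, all above the 23 °C mice at 9.72 to 9.83. Between these groups such a lack of overlap held for 1 of the 29 genes and for 2.45% of all clusters. The difference was 0.47 ± 0.14 (SE, limma adjusted p = 0.189). Phkb, the beta subunit of phosphorylase kinase, averaged 10.02 ± 0.28 in 10 °C, 10.22 ± 0.14 in 18 °C and 10.42 ± 0.24 in 30 °C offspring, against 10.37 ± 0.18 in 23 °C offspring (SD). Its slope was 0.21 ± 0.07 per 10 °C (SE, limma adjusted p = 0.470).

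Between 18 °C and 30 °C offspring, G6pc, the catalytic subunit of glucose 6-phosphatase, averaged 16.42 ± 0.27 in 18 °C against 15.28 ± 1.30 in 30 °C offspring (SD), a difference of 1.14 ± 0.45 (SE, limma adjusted p = 0.528). Gcgr, the glucagon receptor, averaged 10.21 ± 0.25 in 18 °C against 10.63 ± 0.11 in 30 °C offspring, a difference of -0.42 ± 0.14 (SE, limma adjusted p = 0.430). Phkg1, Ppp1r3d, Ppp1r3e and Ppp1r3f, which made up the rest of the unadjusted calls, were not above background.

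The forms of these enzymes best known from muscle and brain were dim or at background in these livers. Gys1, the muscle form of glycogen synthase, averaged 5.56 ± 0.48 in 10 °C, 5.47 ± 0.39 in 18 °C and 5.27 ± 0.27 in 30 °C offspring, against 5.36 ± 0.28 in 23 °C offspring (SD, n = 5 each). Pygm, muscle phosphorylase, averaged 5.56 ± 0.32 in 10 °C, 5.87 ± 0.24 in 18 °C and 5.85 ± 0.39 in 30 °C offspring, against 5.58 ± 0.14 in 23 °C offspring (SD). Phka1, the muscle alpha chain of phosphorylase kinase, averaged 6.02 ± 0.15 in 10 °C, 5.71 ± 0.41 in 18 °C and 5.72 ± 0.45 in 30 °C offspring, against 5.63 ± 0.29 in 23 °C offspring (SD). Pygb, brain phosphorylase, Phkg1, the muscle gamma chain, and Ppp1r3a, the muscle targeting subunit, had means under the background limit.

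Gyg, glycogenin, which primes a new glycogen particle, was also under the background limit, at 3.41 ± 0.34 in 10 °C, 3.63 ± 0.32 in 18 °C and 3.64 ± 0.21 in 30 °C offspring, against 3.53 ± 0.59 in 23 °C offspring (SD). Pgm1, phosphoglucomutase, averaged 13.30 ± 0.14 in 10 °C, 13.20 ± 0.22 in 18 °C and 13.27 ± 0.32 in 30 °C offspring, against 13.29 ± 0.11 in 23 °C offspring (SD). Pgm2, a related enzyme, averaged 5.67 ± 0.47 in 10 °C, 5.51 ± 0.17 in 18 °C and 5.42 ± 0.16 in 30 °C offspring, against 5.51 ± 0.31 in 23 °C offspring (SD). The group means of Pgm1 lay within 0.1 log2 units of each other.

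Among the genes of this list that act on glycogen enzymes from outside, the catalytic subunits Ppp1ca, Ppp1cb and Ppp1cc and the kinases Gsk3a and Gsk3b, which phosphorylate glycogen synthase, were all above background. Gsk3b averaged 12.10 ± 0.16 in 10 °C, 11.99 ± 0.15 in 18 °C and 12.04 ± 0.19 in 30 °C offspring, against 12.06 ± 0.12 in 23 °C offspring (SD, n = 5 each). Ppp1cb averaged 11.86 ± 0.28 in 10 °C, 11.69 ± 0.23 in 18 °C and 11.95 ± 0.10 in 30 °C offspring, against 11.88 ± 0.16 in 23 °C offspring (SD). Gaa, the lysosomal glucosidase that degrades glycogen, averaged 12.86 ± 0.20 in 10 °C, 12.86 ± 0.18 in 18 °C and 12.98 ± 0.16 in 30 °C offspring, against 13.09 ± 0.28 in 23 °C offspring (SD).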

How the data were processed

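Liver RNA of 20 mice was measured on Affymetrix arrays. For the deposited log2 values, the submitters' processing notes name RMA and the Transcriptome Analysis Console. Versions, settings and genome build are not given in the sources used here. RMA usually equalises array distributions, so a shift of all transcripts is not seen, and it compresses differences of dim probe sets. The number of arrays limits the precision.

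Of 28846 rows, 22206 were transcript clusters, and 6640 control rows were used only as array measures. The platform table gave 19572 clusters 1 symbol, 0 several and 2634 none, and 0 symbols changed in RefSeq. Values ran from 1.18 to 19.93, and arrays correlated at 0.987 to 0.993.

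Clusters were fitted with limma 3.58.1 in R 4.3.3 (1 mean per group, 20 arrays, two-sided, Benjamini-Hochberg over 22206 clusters), and the fit was tested on simulated data. Correlations used within-group permutations in Python 3.11.15 with numpy 2.4.6. The 9 genes and all lists were chosen with earlier results of these data known. The rule named all 9 genes, the neighbouring genes with the smallest p, the isoforms fixed by name, and for each gene the 3 clusters most like it. Some listed genes are not reported here. Alternatives changed the variance model, filter, centring, weights, covariates (background, clock, feeding), the arrays used and the block.

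Animal numbers name mice and do not pair them: same-numbered mice of different groups deviated together at r = -0.15 to 0.11 over 11 pairs.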

Additional observations from a re-analysis of the deposited data

Results flagged for a closer look

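Of 36 groups of 5 values (9 genes in 4 groups), 1 held a mouse far from the others. Gys2 was at log2 11.40 in 23 °C animal 2, while the other 4 mice of the 23 °C group lay between 10.14 and 10.22. The gap to the nearest mouse was 0.935 of the group's range, above Dixon's 95% critical value of 0.71. Chance alone flags about 1 in 20 groups. The clock score of this mouse was 2.78, the highest of the 23 °C group, where the other mice had -2.86 to -0.51. Without it, the Gys2 difference from 23 °C offspring was 0.20 in 10 °C, 0.39 in 18 °C and 0.10 in 30 °C offspring, and none passed.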

How the results depend on the processing

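The count of glycogen genes called was 0 of 9 in each of the 8 tests, under each of the 29 alternatives of a pairwise comparison and the 28 of the F-test and of the slope. At an unadjusted p under 0.05 the count ranged over the alternatives from 1 to 2 for 10 °C against 23 °C, 0 to 2 for 18 °C against 23 °C, 0 to 1 for 30 °C against 23 °C, 0 to 2 for 10 °C against 30 °C, 1 to 3 for 10 °C against 18 °C, 2 to 3 for 18 °C against 30 °C, 1 to 3 in the F-test and 0 to 2 for the slope. Over single genes, 1749 of 1811 alternatives kept the sign of the difference or slope, and the 62 that did not concerned values of at most 0.20 in size. The smallest adjusted p was 0.107 (limma, Ppp1r3b between 10 °C and 23 °C offspring, without 30 °C animal 4). Leaving out 1 array moved 43 of the 54 pairwise differences by over 1.5 times in at least 1 fit, and none passed. Over such fits this Ppp1r3b difference ran from -2.19 to -1.52, and the Ppp1r3c difference between 10 °C and 18 °C offspring from 1.79 to 2.56. With the fasted-minus-fed score as a covariate that Ppp1r3c difference was 1.95 (limma adjusted p = 0.835). With the animal number as a replicate block, 0 of 9 genes were called in each test and Ppp1r3b differed by -1.84 between 10 °C and 23 °C offspring (limma adjusted p = 0.194). Numbers are not shown to pair the mice (consensus correlation -0.03). Centring arrays on their medians moved no comparison's median by more than 0.0057. The 2-group fits apply to pairwise comparisons only, and the filter on dim clusters removed Ppp1r3g. Signal over background limits Ppp1r3g.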
